A study of Mus musculus with 2 samples.

Results

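The 10 genes described here encode the AMPA receptor and its best known partners. They are the 4 pore-forming subunit genes, Gria1 to Gria4, and the 6 genes of the transmembrane AMPA receptor regulatory proteins (TARPs), Cacng2, Cacng3, Cacng4, Cacng5, Cacng7 and Cacng8. They were chosen by symbol, and all 10 were found among the 24015 gene symbols of the count tables. RNA came from mouse retina at postnatal day 6, from J-RGCs, a retinal ganglion cell type that a transgenic line marked with green fluorescent protein and that was isolated with magnetic beads and flow cytometry. The 2 libraries, A and B, form 1 group and were pooled from 5 to 6 animals each, every pool from its own litter. Strain, sex and the name of the transgenic line are not stated in what was read here. With no other cell type, age or treatment, the comparisons below are between genes and between the 2 libraries, and none of them shows what is particular to J-RGCs.

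AMPA receptors are glutamate-gated channels that carry fast excitatory transmission, and ganglion cells use them to read the glutamate that bipolar cells release. Each receptor is a tetramer of GluA1 to GluA4, and the subunit mix sets its kinetics and calcium permeability. A receptor with edited GluA2 passes little calcium. TARPs are four-pass membrane proteins that bind the assembled channel and change its gating, and the type I TARPs also carry it to the synapse, where their last residues bind PDZ scaffolds such as PSD-95.

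The coding stretch around the edited codon of the pore is shown because editing there sets the calcium permeability of GluA2 and because the subunits differ at that codon. The codon is in capitals, the stretches are 33 bases long and read 5′ to 3′, and they come from GENCODE M21 on GRCm38, a later build than the mm9 named for the counts.
Gria1: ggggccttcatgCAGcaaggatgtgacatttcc
Gria2: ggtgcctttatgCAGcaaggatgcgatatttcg
Gria3: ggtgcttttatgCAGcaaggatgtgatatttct
Gria4: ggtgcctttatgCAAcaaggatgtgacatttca
They lie in protein-coding sequence, in exon 11 of 16 of Gria1 (chr11:57243082-57243114, plus strand), exon 11 of 16 of Gria2 (chr3:80706893-80706925, minus strand), exon 11 of 16 of Gria3 (chrX:41610253-41610285, plus strand) and exon 12 of 17 of Gria4 (chr9:4464119-4464151, minus strand). Gria1, Gria2 and Gria3 share the codon CAG, while Gria4 has CAA. This is the substitution G15A relative to Gria2, with positions counted from 1 at the 5′ end of the stretch. Both codons encode glutamine, so the genes differ there in a base and not in the encoded residue. Over the whole stretch Gria2 differed from Gria1 at 5 bases, from Gria3 at 3 and from Gria4 at 4. In Gria2 the middle base of that codon is the one that the enzyme ADARB1 deaminates in RNA. Gene counts do not hold the edited share, nor the flip and flop splice forms.

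The ends of the TARP coding sequences are shown because they divide the family that the counts rank. The last 12 bases before the stop codon are in capitals, and each stretch is 30 bases long.
Cacng2: aacacagccaaccgccggACCACGCCCGTA
Cacng3: aatccggccaacagacgtACCACGCCTGTC
Cacng4: agcatgctgaaccggcggACGACTCCCGTG
Cacng8: aacacgctcaacaggaaaACCACGCCCGTG
Cacng5: gactatgaccagatgtcaTCATCTCCCTGC
Cacng7: gaccatctccacatctccACTTCGCCGTGC
All 6 stretches lie in the last exon of their transcript on GRCm38, at chr15:77995152-77995181 (Cacng2, minus strand), chr7:122768814-122768843 (Cacng3, plus), chr11:107734783-107734812 (Cacng4, minus), chr7:3415573-3415602 (Cacng8, plus), chr11:107877355-107877384 (Cacng5, minus) and chr7:3366916-3366945 (Cacng7, plus). The 4 type I genes Cacng2, Cacng3, Cacng4 and Cacng8 ended in ACNACNCCNGTN, read on the coding strand only. Of 21809 mouse coding sequences searched at the same 12 bases, these 4, or 0.0183%, ended that way. The type II genes Cacng5 and Cacng7 ended in NCNTCNCCNTGC instead, which only these 2 of the 21809 did (0.00917%). Both patterns are the bases that the named genes have in common, with N where they differ, so the counts describe how far the ends are shared and test nothing. Aligned over their whole coding sequences, Cacng5 and Cacng7 shared 72.3% of bases with each other, and Cacng5 shared between 59.5% (Cacng3) and 63.4% (Cacng4) with the type I genes. Among the subunits identity ran from 69.9% (Gria1 and Gria3) to 72.8% (Gria3 and Gria4).

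Expression was high for 3 of the subunits and for 1 TARP. The depth was 7916204 gene counts in library A and 13744313 in B. Values are counts scaled to a library total of 1000000 (CPM), with mean ± SD over n = 2 libraries. As longer transcripts give more reads, CPM ranks a gene within the library but does not compare the molecules of 2 genes. Of the 10 genes 9 had at least 1 CPM in both libraries, where 46.8% of all listed symbols and 66.2% of those with any count did. The 10 genes had a median CPM of 37.5 in A and 61.3 in B, beside 5.81 and 8.66 over all genes with a count.

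Gria2 encodes GluA2, the subunit whose edited form limits calcium entry. It stood at 460 CPM in A (3645 counts) and 541 CPM in B (7430 counts), a mean of 501 ± 56.7 CPM that ranked 311 among all listed genes. Gria4, the gene of the fast-gating GluA4, stood at 269 CPM in A and 448 CPM in B (358 ± 127, rank 478). Its 2 values lay further apart than those of any other subunit gene. Gria3 gave 182 CPM in A and 185 CPM in B (183 ± 2.43, rank 1074), a 1.02-fold ratio and the one closest to 1 among the 10 genes. Gria1, which encodes the GluA1 subunit familiar from hippocampal plasticity, was the lowest of the 4 at 55.5 CPM in A and 69.0 CPM in B (62.2 ± 9.61, rank 2925). In each library the CPM order was Gria2, Gria4, Gria3 and Gria1.

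Cacng5, a type II TARP gene, was the only TARP gene in the range of the main subunits. It stood at 177 CPM in A (1400 counts) and 263 CPM in B (3621 counts), 220 ± 61.2 CPM and rank 882. Cacng2, which encodes stargazin, the TARP lost in the stargazer mouse, gave 19.6 CPM in A and 53.5 CPM in B (36.6 ± 24.0), and it shares exon bases with the gene A730060N03Rik. Gria2, Gria3, Gria4 and Cacng8 each share exon bases with another gene of GENCODE M21 (Gm25749, Gm22413, Gm23811 and Gm23450). Reads from such shared bases may be counted to a gene or left out of it as ambiguous. The annotation and strand setting that decide this are not stated, and the size of these overlaps was not measured. The lowest value of Cacng5 thus lay above the highest of Cacng2. Cacng7, the other type II gene, gave 8.59 CPM in A and 30.1 CPM in B (19.4 ± 15.2). Cacng4 gave 8.59 CPM in A and 16.4 CPM in B (12.5 ± 5.50), and Cacng3 gave 7.07 and 15.4 CPM (11.2 ± 5.905). The ranges of Cacng7, Cacng4 and Cacng3 overlapped.

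Cacng8 is the type I TARP gene known best from hippocampus. It had 1 count in A and 8 in B, or 0.126 and 0.582 CPM, with exact Poisson 95% intervals of 0.0032 to 0.704 CPM and 0.251 to 1.15 CPM that cover counting error only. Both values lay below 1 CPM. The limit of detection was set at 3 counts, or 0.379 CPM in A and 0.218 CPM in B, and the value in A lay below it. Cacng8 was therefore barely above the limit of detection in B and not above it in A. Cacng1 and Cacng6, related gamma subunit genes that are not TARPs, had no count in either library. Their exact Poisson 95% intervals reached up to 0.466 CPM in A and 0.268 CPM in B. In the RefSeq annotation of GRCm38.p6 Cacng1, Cacng4 and Cacng5 are consecutive protein-coding genes, as are Cacng7, Cacng8 and Cacng6. Each run thus held a gene with no count, and Cacng5 lay above the other genes of its run.

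**Figure D1:**
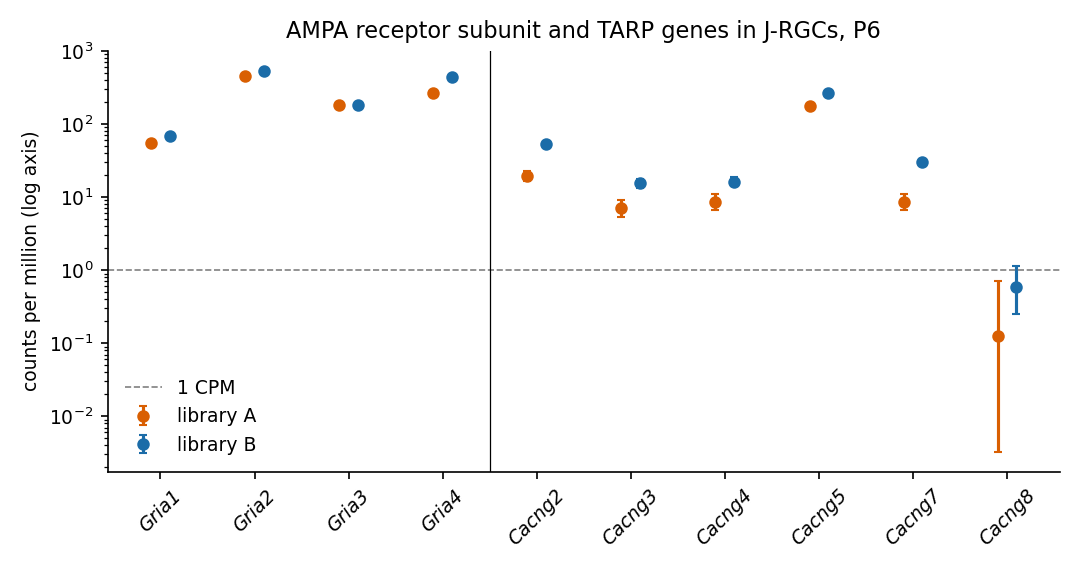
CPM (log axis) of the 4 AMPA receptor subunit genes and the 6 TARP genes in library A (orange) and library B (blue). Bars are exact Poisson 95% intervals, which cover counting error only, and the dashed line marks 1 CPM. Cacng5 sits at 177 and 263 CPM, among the subunit genes, and Cacng8 lies below the line in both libraries.

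Levels of different genes were compared per kilobase of summed exon length. A pair of genes was called separated when the 95% interval of their ratio, built from edgeR's trended dispersion plus counting error, excluded 1 and the order was the same in both libraries. For 2 libraries of 1 group this interval stands in for a test, and no p-value was computed for the 19 ratios formed. Per length Gria4 led the subunits at 56.9 ± 20.1 CPM per kb, followed by Gria2 at 32.2 ± 3.65, Gria3 at 18.6 ± 0.247 and Gria1 at 10.3 ± 1.59 CPM per kb. This order held in both libraries. None of the 3 pairs of neighbours was separated. Gria4 over Gria2 was 1.77-fold (interval 0.669 to 4.66), Gria2 over Gria3 1.73-fold (0.675 to 4.44) and Gria3 over Gria1 1.81-fold (0.759 to 4.30). Genes further apart in the order were separated. Gria4 exceeded Gria1 5.52-fold (2.25 to 13.6) and Gria3 3.06-fold (1.21 to 7.74), and Gria2 exceeded Gria1 3.12-fold (1.26 to 7.78).

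The levels and calls of the subunits depended on the length used, above all for Gria2 and Gria3. In the order only Gria2 and Gria4 changed places, with coding length. The summed exons of Gria2 span 15.5 kb, of which 10.5 kb lie in protein-coding transcripts and 2.65 kb are coding. Those of Gria4 span 6.30 kb, with 2.71 kb coding. For Gria3 they span 9.86 kb, of which 5.50 kb lie in protein-coding transcripts, and its level rose from 18.6 to 33.4 CPM per kb with the shorter length. Per kb of coding sequence Gria2 led at 189 ± 21.4 CPM per kb and Gria4 followed at 132 ± 46.8. With coding length Gria2 over Gria3 was 2.75-fold (1.07 to 7.04) and was then separated. Gria3 over Gria1 was separated with each of the 3 other lengths, at 3.01-fold with coding length (1.26 to 7.16), 3.14-fold with the longest transcript (1.32 to 7.47) and 3.16-fold with protein-coding exons (1.33 to 7.51). Gria4 over Gria3 lost its call with each of them, at 1.92-fold (0.760 to 4.88), 1.87-fold (0.738 to 4.74) and 1.70-fold (0.673 to 4.32). Gria1 was the lowest subunit gene under all 4 lengths tried.

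Cacng5 led the TARPs per length at 57.4 ± 16.0 CPM per kb, and it was separated from each of the other 5. The next gene, Cacng7, stood at 7.93 ± 6.24 CPM per kb, and Cacng5 exceeded it 7.24-fold (2.76 to 19.0), with 13.1-fold in A and 5.57-fold in B. Cacng5 exceeded Cacng2 8.65-fold (3.503 to 21.4), Cacng3 14.2-fold (5.07 to 39.7) and Cacng4 16.4-fold (5.95 to 45.5). Against Cacng8 the ratio was 380-fold with an interval of 48.5 to 2977, which rests on the 9 counts of Cacng8. Each of these calls held under all the lengths, scalings and dispersions tried and in either library alone. Below Cacng7 came Cacng2 (6.64 ± 4.36), Cacng3 (4.05 ± 2.13) and Cacng4 (3.49 ± 1.54 CPM per kb), and from Cacng7 down to Cacng4 no gene was separated from the next. Cacng7 and Cacng2 changed places between the libraries, at 0.990-fold in A and 1.27-fold in B. Per kb of coding sequence Cacng2, at 37.7 ± 24.8 CPM per kb, stood above Cacng7, at 23.5 ± 18.4, and it was then separated from Cacng3 (3.17-fold, 1.15 to 8.78). Cacng4 exceeded Cacng8 23.1-fold (2.82 to 190).

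Set beside the subunits, Cacng5 lay level with Gria4, at 1.01-fold with an interval of 0.396 to 2.58. It was not separated from Gria2 (1.78-fold, 0.690 to 4.61), and it exceeded Gria1 5.57-fold (2.32 to 13.4). The interval allows a difference of more than 2-fold in either direction for Gria4, and for Gria2 one of more than 4-fold with Cacng5 the higher. The levels beside the subunits moved with the length used. Per kb of coding sequence Cacng5 was 2.02-fold of Gria4 (0.789 to 5.14), still not separated, and 11.7-fold of Gria1 (4.86 to 28.0).

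**Figure D2:**
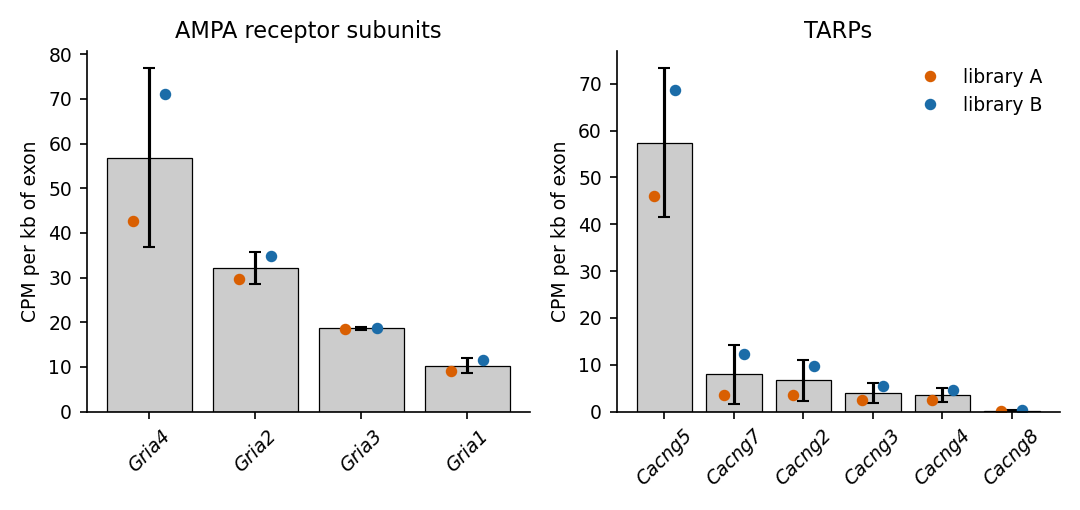
Level per kilobase of exon of the subunit genes (left) and the TARP genes (right), each in descending order. Bars are means over the 2 libraries with SD, and points are library A (orange) and library B (blue). The subunits descend in steps of less than 2-fold, while Cacng5, at 57.4 CPM per kb, stands apart from the 5 other TARPs.

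As shares of the summed per-length level, the subunit genes divided into 47.5% ± 6.75 Gria4, 27.6% ± 2.90 Gria2, 16.1% ± 3.29 Gria3 and 8.79% ± 0.559 Gria1. The Gria4 share was 42.7% in A and 52.2% in B. Cacng5 made up 79.2% of the TARP sum in A and 67.9% in B. Cacng7 held 6.05% in A and 12.2% in B, Cacng2 6.10% and 9.61%, Cacng3 4.38% and 5.49%, and Cacng4 4.13% and 4.53%. Cacng8 held 0.169% ± 0.108. The type II genes Cacng5 and Cacng7 together exceeded the 4 type I genes 5.80-fold in A and 4.03-fold in B. The TARP sum was 0.583 of the subunit sum in A and 0.744 in B, and the type I genes alone came to 0.0857 and 0.148 of it. These are shares of RNA and say nothing of protein or of receptor makeup.

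**Figure D3:**
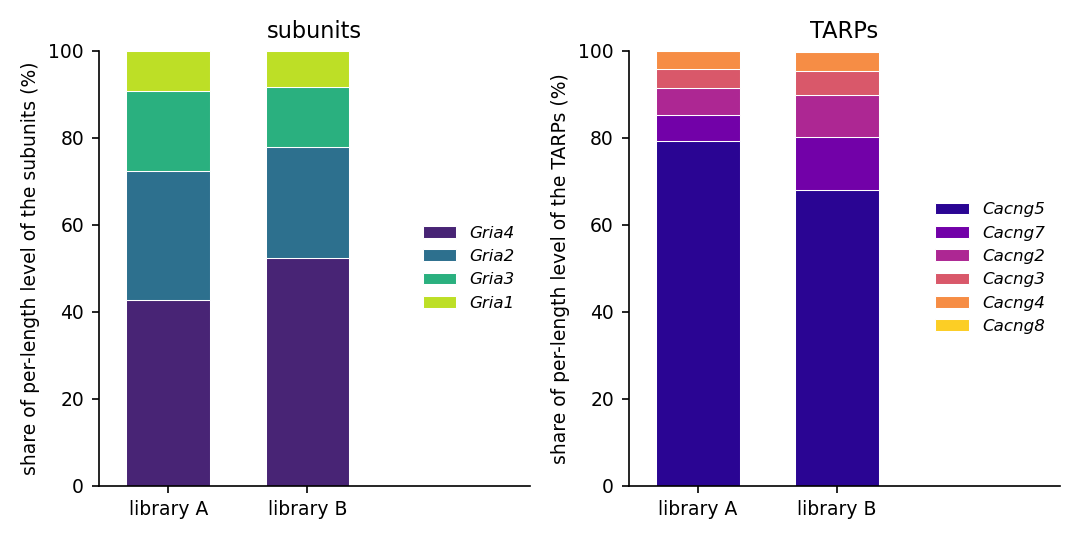
Share of the summed per-length level held by each subunit gene (left) and each TARP gene (right) in each library, in percent. Gria4 is the largest block among the subunits (42.7% and 52.2%), and Cacng5 is the largest among the TARPs (79.2% and 67.9%).

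Between the libraries 3 TARP genes and none of the subunit genes differed by over 2-fold and passed the test. All 10 genes had a higher CPM in B, but so did 70.4% of the 14107 genes with at least 10 counts, whose median log2 ratio of B over A was 0.53. A two-sided exact binomial test was run on the A and B counts of every such gene, with Benjamini-Hochberg adjustment over all of them, and a gene was called at an adjusted p under 0.05 and at least 2-fold with 0.5 CPM added. That test compares these 2 libraries only, and separately amplified libraries differ by more than counting error. Of all genes tested 32.3% were called higher in B and 10.3% higher in A. Of the 9 receptor and TARP genes tested 3 were called higher in B, near that background, and 0 higher in A. In pooled cells a change in the number of cells that express a gene and in its RNA per cell cannot be told apart.

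Cacng7 was 3.51-fold higher in B (adjusted binomial p = 4.43e-27), Cacng2 2.74-fold (4.36e-35) and Cacng3 2.18-fold (1.02e-07). Cacng4, at 1.91-fold, and Cacng5, at 1.49-fold, stayed under 2-fold, and Cacng8 had too few counts to be tested. Of the subunits Gria4 was 1.67-fold, Gria1 1.24-fold, Gria2 1.17-fold and Gria3 1.02-fold of its level in A. TMM scaling lowered every log2 ratio of B over A by 0.38. The log2 ratios of Gria1, Gria2 and Gria3 then turned to -0.07, -0.15 and -0.36, so those 3 genes were higher in A and the other 7 in B. With TMM scaling Cacng7 (2.69-fold) and Cacng2 (2.10-fold) kept their calls and Cacng3 (1.67-fold) did not, against 23.0% of all genes called higher in B and 14.7% in A. With DESeq2's size factors Cacng7 alone was called, against 21.0% of all genes higher in B and 16.1% in A. With no minimum of fold 8 of the 9 genes, all but Gria3, passed higher in B and 0 in A, where 57.0% and 20.8% of all genes did. With edgeR's exact test at the dispersion between the libraries 0 of the 9 genes were called, where 0.0213% of all genes were called higher in B and 0.447% higher in A. By that test 0 of the 9 had an unadjusted p under 0.05, against 4.83% of all genes.

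**Figure D4:**
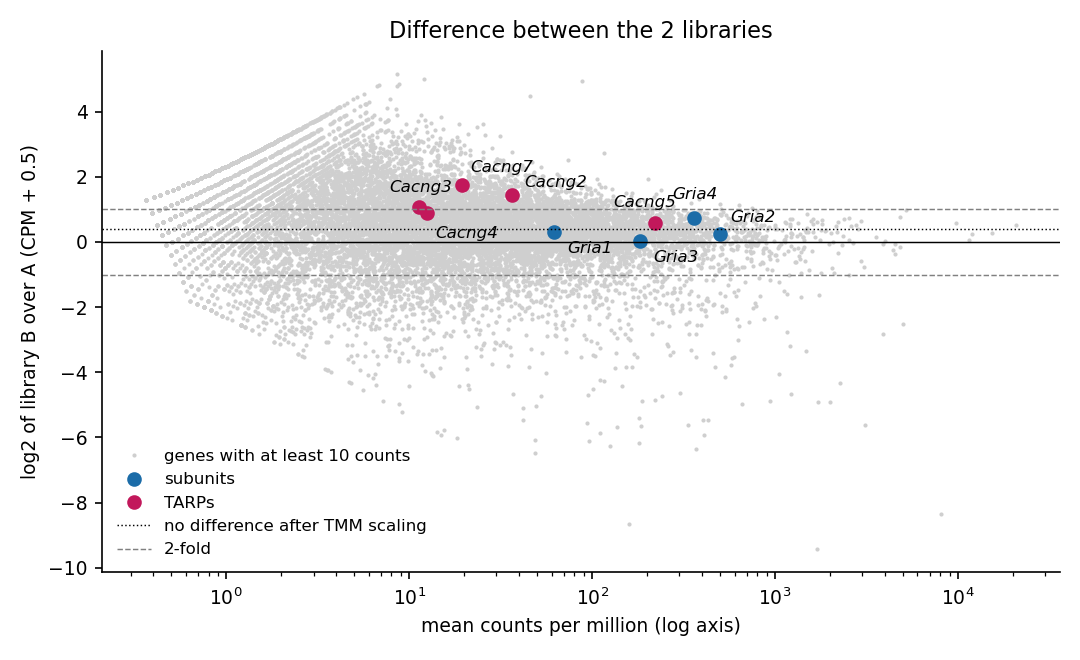
Log2 ratio of library B over A, with 0.5 CPM added, against the mean CPM (log axis) for all genes with at least 10 counts (grey), the subunit genes (blue) and the TARP genes (magenta). Dashed lines mark 2-fold and the dotted line no difference after TMM scaling. Cacng7, Cacng2 and Cacng3 lie above the upper dashed line, and the subunits lie within 2-fold, among the grey points.

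The sorted cells were checked against markers of retinal cell types. All 10 ganglion cell markers were detected, at a median CPM of 1020 in A and 1016 in B, and Jam2, which defines J-RGCs, stood at 2344 and 1203 CPM. Of these 10 markers 8 had a higher CPM in B, beside 70.4% of all genes tested. Their median log2 ratio of B over A was 0.74, beside 0.74 for the 9 receptor and TARP genes tested and 0.53 for all genes tested. Pou4f2 and Thy1, 2 of the 10, were called higher in B (2.08-fold and 2.04-fold), beside 32.3% of all genes. Neither was called with TMM scaling (23.0% of all genes), which left 7 of the 10 higher in B. With DESeq2's size factors 0 of the 10 were called higher in B (21.0% of all genes). By the same scaling 1, Rbpms, was called higher in A (16.1%). Jam2 was called higher in A with TMM scaling and with DESeq2's size factors, but not with the gene total. Most ganglion cell markers, like most genes tested, were thus higher in the library where the TARP genes were higher, and Jam2 was lower there. Other retinal neurons and glia also use AMPA receptor genes. The summed CPM in A and B was 514 and 444 for 6 Müller glia genes, 234 and 120 for 7 bipolar genes, 126 and 108 for 8 amacrine genes, 134 and 123 for 5 horizontal cell genes, 269 and 332 for 7 microglia genes, and 406 and 107 for 6 endothelial and mural genes. Rods, cones and astrocytes summed to at most 39.8 CPM each, and 4 genes of dividing cells to 166 and 79.4 CPM. Of these lists 5, 3, 4, 4, 5 and 4 genes were detected in the order given, with the horizontal cell gene Lhx1 and the cone gene Opn1mw at 0 in both libraries. At 0 in A were also Rlbp1 of Müller glia, Cabp5 of bipolar cells and Chat of amacrine cells, which stood in B at 1.60, 0.146 and 0.0728 CPM. The same held for Gnat1 of rods (0.291 CPM in B), Gnat2 of cones (0.873), Gfap and Pdgfra of astrocytes (1.09 and 0.437) and Cldn5 of endothelial cells (0.0728). Of these Rlbp1, Gfap and Gnat2 were called higher in B (adjusted binomial p = 0.000159, 0.00329 and 0.0119). A gene at 0 in A could be called in that direction only. Over whole lists 1 Müller glia gene was called higher in A and 2 in B. For rods these numbers were 2 and 1, and for bipolar and for amacrine cells 1 and 2. They were 3 and 2 for endothelial and mural cells, 0 and 2 for cones and 0 and 1 for astrocytes. Over all genes tested 10.3% and 32.3% were called. With the gene total, the summed levels of Müller glia, bipolar, amacrine, horizontal, dividing, and endothelial and mural cell genes were lower in B. The microglia sum was higher in B, and no sum was formed with TMM scaling. Some sums rest on few genes, such as Grm6 of bipolar cells (96.4 CPM in A and 0.582 CPM in B) and Rgs5 of mural cells (342 and 82.4). A higher CPM in B was found for 3 of 6 Müller glia, 4 of 7 bipolar and 4 of 8 amacrine genes. The same held for 2 of 5 horizontal, 3 of 6 endothelial and mural, 1 of 4 dividing and 6 of 7 microglia genes. Over all genes tested that share was 70.4%. The part of other cells in the levels of the 10 genes was not tested.

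Further AMPA receptor auxiliary and biogenesis genes were detected for 9 of the 11 measured. The highest belonged to the Shisa family, which includes proteins that bind AMPA receptors and alter their desensitisation, with Shisa7 at 121 CPM in A and 99.8 CPM in B and Shisa6 at 72.1 and 117 CPM. Frrs1l, needed for receptor assembly in the endoplasmic reticulum, stood at 74.4 and 68.2 CPM. The cornichon gene Cnih2, whose protein slows receptor deactivation, stood at 10.9 and 36.8 CPM, and Cnih3 at 1.26 and 8.88 CPM. Cpt1c, a regulator of GluA1 trafficking, gave 6.70 and 18.8 CPM, and Syndig1, of a synapse-inducing protein, gave 0 and 3.20 CPM. Cnih2, Cnih3, Cpt1c and Syndig1 were the 4 of 10 tested that were called higher in B (32.3% over all genes), and 0 were called higher in A. All 4 kept the call with TMM scaling (23.0% over all genes), and with DESeq2's size factors Cpt1c lost it. Shisa8 was not analysed here.

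Anchoring and trafficking genes were detected for 13 of 13. Dlg2, which encodes the PSD-93 scaffold, reached 1462 CPM in A and 2163 CPM in B, and Nsf, the ATPase that binds the GluA2 tail, 336 and 501 CPM. The subunit tail binders Grip1 and Grip2 stood at 320 and 396 CPM and at 1.77 and 11.1 CPM. Dlg4, the gene of PSD-95, gave 169 CPM in each library. Pick1, another GluA2 tail binder, gave 6.57 and 14.4 CPM. Of these 13 genes Grip2 and Pick1 were called higher in B, beside 32.3% of all genes, and 1 was called higher in A, beside 10.3%. With TMM scaling Pick1 lost its call (23.0% of all genes called higher in B and 14.7% in A).

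The RNA editing enzymes were all detected. Adarb1, whose enzyme edits the codon printed above for Gria2, stood at 105 CPM in A and 158 CPM in B. Adar stood at 71.1 and 67.4 CPM and Adarb2, which has no known editing activity, at 7.96 and 10.3 CPM. None of the 3 was called between the libraries by the binomial test at 2-fold with either scaling, although Adarb1 was 1.505-fold of its level in A.

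**Figure D5:**
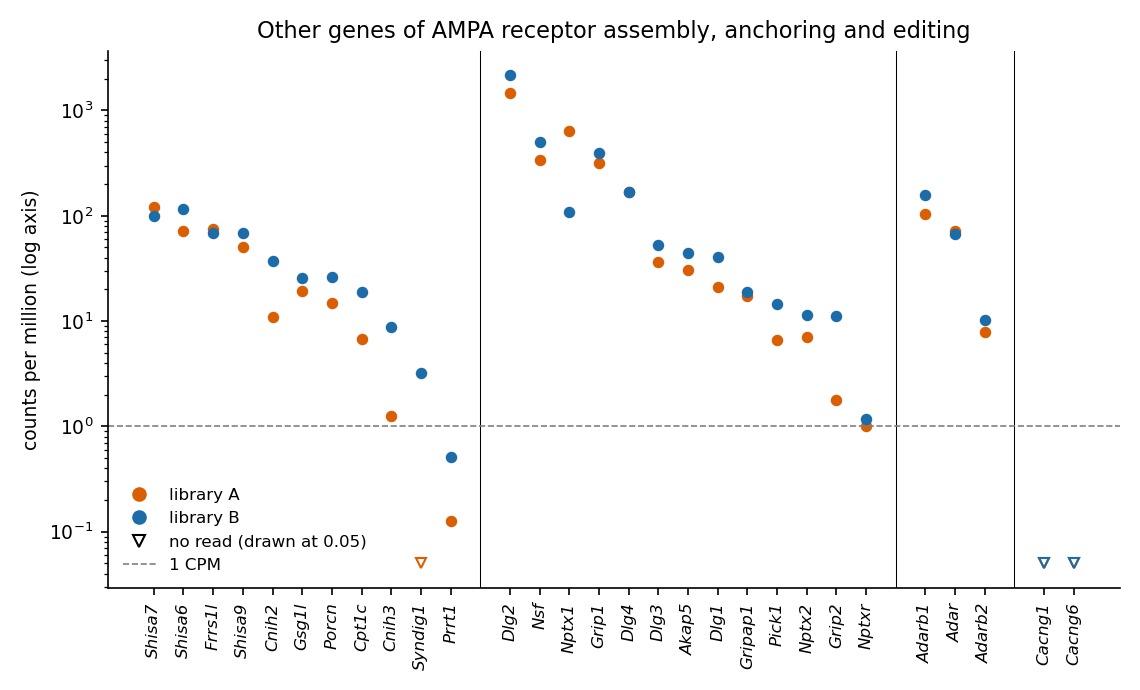
CPM (log axis) of other genes of AMPA receptor assembly, anchoring and editing in library A (orange) and library B (blue), with lists separated by vertical lines and open triangles, drawn at 0.05, for libraries with no read. From left to right the lists are auxiliary and biogenesis proteins, anchoring and trafficking proteins, editing enzymes, and gamma subunits that are not TARPs. Dlg2 is highest at 1462 and 2163 CPM, and Cacng1 and Cacng6 have no read in either library.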

How the data were processed

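Per library the authors deposited 1 table of raw counts, whole numbers for each gene symbol. Build mm9 and the tools HTSeq 0.6.1, TopHat2 2.0.10 and Trimmomatic 0.32 are named in the submitters' processing notes, without settings, annotation or use of strand. It is therefore not known whether reads from bases shared by overlapping or antisense genes were counted to a gene or set aside as ambiguous. Of the reads in the files 26.8% (A) and 30.9% (B) were assigned to a gene, 54.3% and 47.9% to none, and 18.5% and 20.8% aligned to several places. A further 0.313% (A) and 0.357% (B) were ambiguous between genes. Those summary lines were left out of the totals. The libraries come from separate litters, and amplified reads carry no molecular identifiers.

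CPM is the count over the library's gene total, scaled to 1000000. Lengths are summed exons of GENCODE M21, which has another genome build, and 22667 of 24015 symbols had one. TMM factors and the trended dispersion came from edgeR 4.0.16 in R 4.3.3 (intercept only, 11272 genes past its expression filter, common coefficient of variation 0.507). Cacng8 did not pass that filter and took its dispersion from the fit without it. The size factors of DESeq2 1.42.0 were also computed in R. The binomial test and the ratio intervals ran over the whole table with Python 3.11.15, numpy 2.4.6, pandas 2.3.3 and scipy 1.17.1. Both were tried on simulated data, and the scalings were not. The counts simulated for the binomial test held counting error only, so that trial does not cover further differences between libraries. The lists of other genes were named by a rule: the 3 highest detected genes, every gene called between the libraries and every gene with no read. Dlg4, Grip1, Nptx2, Nptxr, Rlbp1, Cabp5, Chat, Gnat1, Gnat2, Gfap, Pdgfra and Cldn5 were named outside that rule after their values were seen. The 10 genes and all lists were chosen with earlier results of these data known. No likeness of patterns was computed, since 2 libraries of 1 group cannot show one. A further list of genes is not reported here.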

Additional observations from a re-analysis of the deposited data

How the results depend on the processing

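Of the 3 subunit pairs that are neighbours with summed exons, 0 were separated with that length, 1 with the longest transcript, 2 with coding length and 1 with the exons of protein-coding transcripts only, a length chosen after seeing the data. Of the 5 such TARP pairs 2 were separated, and 3 with coding length. The TARP sum over the subunit sum, 0.663 with summed exons, was 0.505 with the longest transcript, 0.840 with coding length and 0.532 with protein-coding exons. The Gria2 share of the subunits, 27.6% with summed exons, was 46.0% with coding length and 32.4% with protein-coding exons. Of the receptor and TARP genes 3 were called higher in B. That number was 1 (Cacng7) with DESeq2's size factors (21.0% of all genes), 8 with no minimum of fold (57.0%) and 0 with edgeR's exact test (0.0213%), whose dispersion comes from the same 2 libraries. In either library alone the intervals are wider by construction: Gria2 over Gria1 was 3.04-fold in B alone (0.839 to 11.0) and 3.23-fold in A alone (0.888 to 11.7), and Gria4 over Gria3 was 2.31-fold in A alone (0.621 to 8.62), none of them separated. Of 209 per-length ratios under an alternative, 198 kept their direction and side of the call or were not separated in either setting. Of the rest 6 lost the call and 5 gained one. A reversal was counted only for a ratio separated with or without the alternative, and there were 0. Some ratios separated in neither setting did cross 1, such as Gria4 over Gria2 (0.701-fold) and Cacng7 over Cacng2 (0.622-fold) with coding length. The alternative dispersions changed only the interval of a ratio and could not change its direction. The number of libraries limits these values, since 2 libraries of 1 group allow no permutation test. No paired analysis was possible because there is 1 group.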

Other observations

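Among the neuronal pentraxins, secreted proteins that cluster AMPA receptors, Nptx1 was the 1 gene of the anchoring list called higher in A, at 636 CPM in A and 108 CPM in B, or 5.86-fold, by the exact binomial test. Its relatives Nptx2 (7.07 and 11.5 CPM) and Nptxr (1.01 and 1.16 CPM) were not called. Nptx1 kept its call with TMM scaling and with DESeq2's size factors, and it was higher in A where all 10 receptor and TARP genes had a higher CPM in B with the gene total, 7 of them with TMM scaling.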
